A study of Mus musculus with 32 samples.

Results

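Txnip and genes that sense, import and first phosphorylate glucose were followed across mouse embryonic stem cells (ESCs) and the neurons induced from them (iNs), with and without deletion of a maternally expressed microRNA cluster. The 8 genes were taken by name: Txnip, its relative Arrdc4, the glucose-sensing factors Mlxip and Mlxipl, the transporters Slc2a1 and Slc2a3, and the hexokinases Hk1 and Hk2. All 8 were found among the 52636 gene entries of the RNA-seq files. Txnip was chosen by its measured fold change, among the largest rises with the deletion in iNs. The contrast of deletion iNs with control iNs therefore chose the set. For these 8 genes it is given as a description, without p-values, and nothing is read from how many of them passed there.

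The series, in hybrid mouse cells, compared control cells of genotype Mirg(fl/+) with Mirg(Delta/+) cells, in which the miR-379/miR-410 cluster on the maternal chromosome was deleted. ESCs (day 0) were kept in medium with serum and LIF, and iNs were collected at day 10 of doxycycline induction of a TetO-Ngn2 transgene in neuron differentiation medium. Each of the 4 groups, control ESCs, deletion ESCs, control iNs and deletion iNs, had 3 rRNA-depleted RNA-seq libraries and 3 small RNA libraries, lettered A to C. Binding of Argonaute 2 (Ago2), the protein that carries microRNAs to their targets, was mapped by seCLIP in control iNs expressing exogenous HA-tagged or untagged Ago2. The sources used here do not say how many clones or separate cultures stand behind the letters, so p-values reflect spread among these libraries alone, which may be technical. The genotype cannot be told apart from anything else that set deletion apart from control cultures, such as the line used, its handling or the dose of the transgene.

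RNA libraries held 14904735 to 21499106 counts. Mirg, which hosts the cluster, had 455 to 932 counts per control library, 0 in each deletion ESC library and at most 2 in deletion iNs, which matched the labels. The summed level of 8 neuron markers in TPM, a value corrected for transcript length, was 1776 to 2163 for control iNs, 2133 to 2377 for deletion iNs and 73.7 to 98.5 for ESCs. That of 8 pluripotency markers was 1792 to 2226 TPM in ESCs and 3.08 to 5.03 in iNs. Other features moved with the iN genotype too: Neurog2, the gene that the transgene carries, had 3218 to 4526 counts in control against 11062 to 12829 in deletion iNs, the 5 neural progenitor markers summed to 2.97 to 3.65 and 6.42 to 8.56 TPM, and the 7 glia markers found summed to 8.76 to 10.6 and 11.8 to 14.8 TPM, with Gfap and Sox10 at 0 in all iN libraries. The 7 fibroblast markers summed to 9.58 to 13.2 and 11.8 to 12.1 TPM in control and deletion iNs, with Lum at 0 in both and Dcn at 0 in deletion iNs. Mitochondrial genes took 3.42 to 4.38% of counts in control and 2.45 to 3.6% in deletion iNs. The part of these features in the results below was not tested. In such bulk libraries, fewer cells with a transcript and less of it per cell cannot be told apart.

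As background, cells adjust glucose uptake through a feedback loop. MondoA (Mlxip) and ChREBP (Mlxipl) sense phosphorylated glucose, pair with Mlx and bind carbohydrate response elements, which consist of a pair of E-box-like motifs with a short spacer. Txnip and Arrdc4 are among the best known genes they switch on. Both encode alpha-arrestins, adaptor proteins that promote removal of glucose transporters from the cell surface, and Txnip also binds and inhibits thioredoxin. GLUT1 (Slc2a1) is the broadly expressed glucose transporter and GLUT3 (Slc2a3) the main one of neurons. Hexokinases trap the imported sugar by phosphorylation: Hk1 is the form typical of brain, and Hk2 that of embryonic, muscle and many tumour cells.

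The microRNAs of the deleted cluster that the authors matched to Ago2 regions in Txnip and Slc2a3 are shown. Whether they act on these genes was not tested. The mature sequences come from RefSeq (GRCm38.p6, the assembly that mm10 denotes) and run 5′ to 3′, with the seed, bases 2 to 8, in capitals. The first lies on the plus strand of chromosome 12 at chr12:109734946-109734967, the next at chr12:109723471-109723492, then chr12:109722733-109722754 and chr12:109718795-109718816.
miR-485-3p: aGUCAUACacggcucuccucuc
miR-376b-5p: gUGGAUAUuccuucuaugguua
miR-376c-5p: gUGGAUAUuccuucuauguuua
miR-495-3p: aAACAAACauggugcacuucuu
miR-376b-5p and miR-376c-5p shared their seed, UGGAUAU, and the other two had seeds of their own.

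Upstream stretches of Txnip and Arrdc4 are shown because these genes stood together in deletion iNs and are textbook MondoA and ChREBP genes. They too come from RefSeq (GRCm38.p6) and are printed 5′ to 3′ along the gene's strand, with matches to the searched letters in capitals. That of Txnip covers bases −130 to −1 before its annotated start (chr3:96557827-96557956, plus strand), and that of Arrdc4 bases −210 to −81 (chr7:68749319-68749448, minus strand). The Arrdc4 stretch lies farther upstream and takes in its match, which bases −130 to −1 would not.
Txnip: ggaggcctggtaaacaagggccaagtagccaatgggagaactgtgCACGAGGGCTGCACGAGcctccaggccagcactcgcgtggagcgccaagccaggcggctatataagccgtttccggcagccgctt
Arrdc4: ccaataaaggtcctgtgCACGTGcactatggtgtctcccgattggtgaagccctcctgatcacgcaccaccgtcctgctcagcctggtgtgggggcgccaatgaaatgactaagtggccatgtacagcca
A carbohydrate response element form, CACGNG repeated after 5 bases of any kind, was searched on both strands in windows from 250 bases before to 50 bases after each annotated start. It occurred in 16 of 32851 windows (0.0487%), and of the 7 listed genes with a window it was found in Txnip alone, at −85 to −69. The single E-box CACGTG occurred in 2349 windows (7.15%), among them that of Arrdc4 at −193 to −188 and 1 window of Mlxipl at −98 to −93. The Mlxipl stretch is not shown. The 7 genes had 9 windows, because Mlxipl and Hk1 had more than 1, and Slc2a3 had none in the table. The same form with CACGTG exact in both motifs was found in 0 windows. A match describes these letters and not a bound site.

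In the genome (GRCm38.p6), Txnip (ENSMUSG00000038393.14) spans chr3:96557957-96561857 and Arrdc4 (ENSMUSG00000042659.15) chr7:68736994-68749238. Mlxip (ENSMUSG00000038342.15) lies at chr5:123394521-123457932 and Mlxipl (ENSMUSG00000005373.13) at chr5:135089890-135139768. Slc2a1 (ENSMUSG00000028645.11) lies at chr4:119108745-119137330 and Slc2a3 (ENSMUSG00000003153.10) at chr6:122727809-122802363. Hk1 (ENSMUSG00000037012.18) spans chr10:62268855-62379920 and Hk2 (ENSMUSG00000000628.10) chr6:82725025-82774454.

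Txnip was low in control iNs and near its stem cell level in deletion iNs. Its level in CPM, counts relative to the scaled library size, was 29.8, 28.0 and 29.1 in control ESCs A, B and C, and 22.7, 22.7 and 22.5 in deletion ESCs. In control iNs it was 1.47, 3.35 and 5.23 CPM, from 22, 71 and 90 counts. In deletion iNs it was 21.0, 30.9 and 16.0 CPM, from 416, 586 and 316 counts. The lowest deletion library thus stood above the highest control library in iNs, and the libraries of each iN group spread more than those of the ESC groups, by up to 3.55 times between the highest and lowest control iN library against 1.06 times in control ESCs.

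The mean of Txnip was 3.35 ± 1.88 CPM (SD, n = 3) in control iNs and 22.6 ± 7.57 CPM (SD, n = 3) in deletion iNs, a difference of 2.73 ± 0.28 (SE) on the log2 scale. By size of rise it ranked 9 among the 16028 genes tested in iNs. Control iN library A had the fewest Txnip counts, the lowest depth and the highest mitochondrial share, and without it the difference was 2.42 ± 0.25 on the log2 scale.

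Arrdc4, the alpha-arrestin closest to Txnip in its regulation, followed it in iNs but not in ESCs. Its level was 11.4, 12.3 and 12.8 CPM in control ESCs, 12.3, 11.9 and 11.3 in deletion ESCs, 10.1, 14.5 and 17.0 in control iNs, and 40.7, 43.9 and 31.5 in deletion iNs. The deletion iN libraries stood above all 9 others, and the other groups overlapped. The iN difference was 1.47 ± 0.15 (SE) on the log2 scale, from 13.9 ± 3.50 to 38.7 ± 6.40 CPM (SD, n = 3 each). Across the 6 iN libraries the log2 levels of Txnip and Arrdc4 had a Pearson r of 0.995, which describes both the step between the genotypes and the order within them. Over all 12 RNA libraries it was 0.227. Such values were not particular to this pair, as Tmem101 (0.983) and Cep164 (0.982) also ran with Txnip in the 6 iN libraries. Library B was the highest and library C the lowest deletion iN library for both genes, and library A was the lowest control iN library for both.

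**Figure D1:**
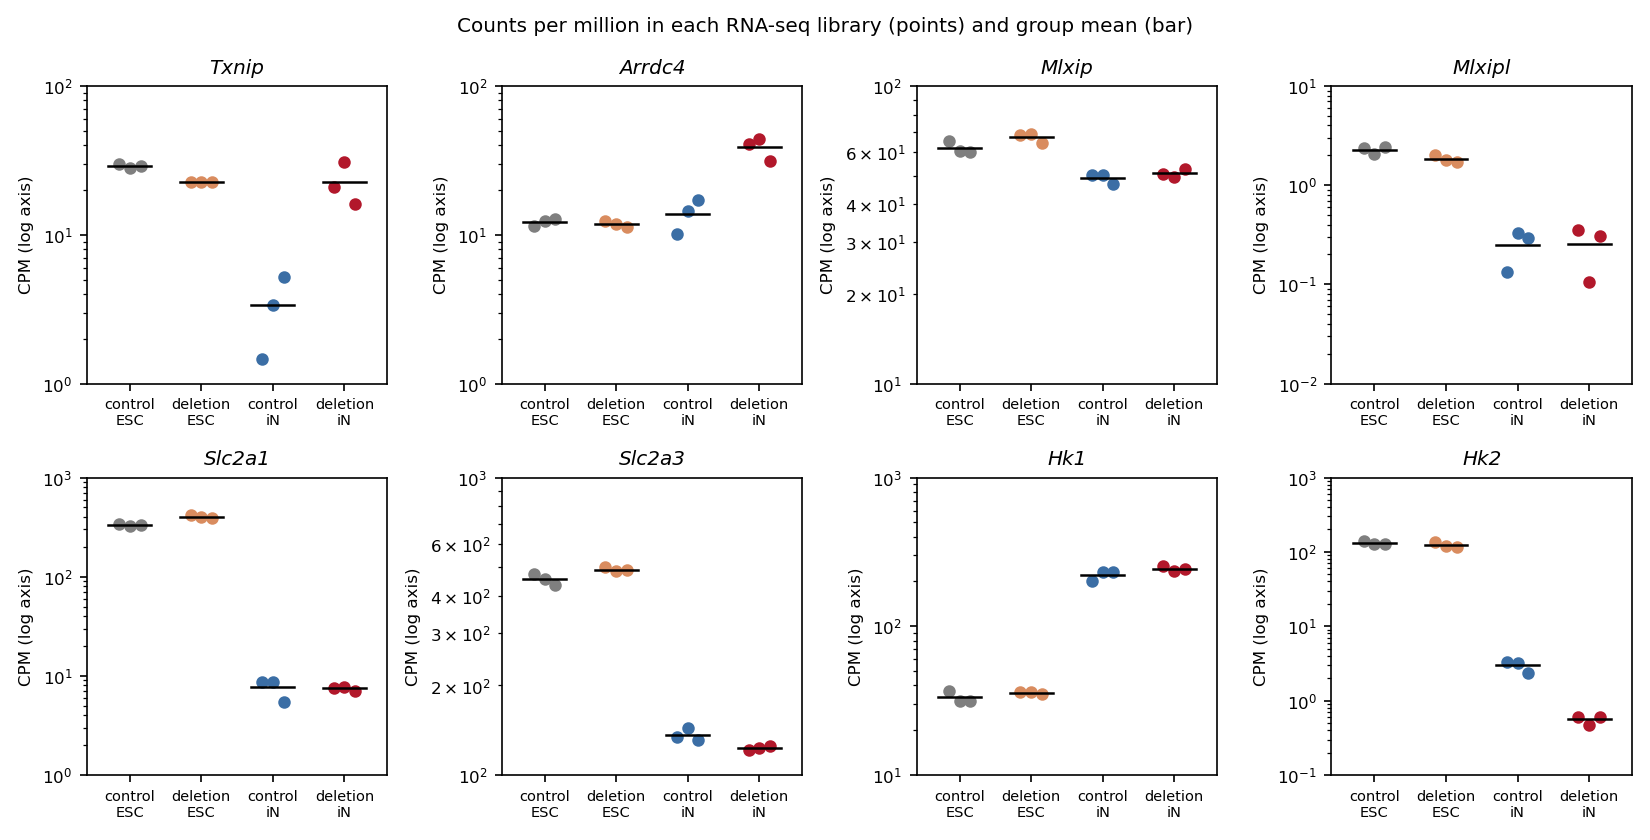
Level of each of the 8 genes in CPM (log axis, range differing by panel) in the 3 libraries of each RNA-seq group; points are libraries A, B and C from left to right and the bar is the group mean. Txnip at 16.0 to 30.9 CPM and Arrdc4 at 31.5 to 43.9 CPM in deletion iNs stand above all control iN libraries, whereas Hk2 at 0.475 to 0.609 CPM stands below them.

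Of the factors that sense glucose, Mlxip overlapped between the iN genotypes and Mlxipl was too low there to test. Mlxip (MondoA) was 65.1, 60.4 and 60.0 CPM in control ESCs and 68.5, 68.8 and 64.2 in deletion ESCs. It was 50.3, 50.2 and 46.9 CPM in control iNs and 50.7, 49.4 and 52.5 in deletion iNs, with a difference of 0.05 ± 0.06 (SE) on the log2 scale. Mlxipl (ChREBP) had 2, 7 and 5 counts in control iNs and 7, 2 and 6 in deletion iNs, and did not pass the filter on low counts. In ESCs it held 50, 34 and 45 counts in control and 41, 35 and 33 in deletion libraries. MondoA was thus the form with the higher level per transcript length in each group, 6.14 against 0.22 TPM on average in control iNs and 7.64 against 0.14 TPM in deletion iNs.

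The transporters differed little between the iN genotypes. Slc2a1 (GLUT1) was 8.77, 8.73 and 5.40 CPM in control iNs and 7.62, 7.70 and 7.10 in deletion iNs, which lay within the range of the control libraries, and the log2 difference was −0.03 ± 0.16 (SE). Slc2a3 (GLUT3) was 134, 144 and 131 CPM in control iNs and 122, 124 and 125 in deletion iNs, with no overlap and a log2 difference of −0.14 ± 0.06 (SE).

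Of the hexokinases, Hk1 also differed little between the iN genotypes, whereas Hk2 had fewer counts in deletion iNs. Hk1 was 200.4, 233 and 232 CPM in control iNs and 255, 236 and 241 in deletion iNs, with no overlap. Its log2 difference was 0.14 ± 0.06 (SE), and it did not pass edgeR's test. Hk2 was scarce in iNs, with 50, 69 and 41 counts in control and 12, 9 and 12 in deletion libraries. That is 3.35, 3.26 and 2.38 CPM against 0.606, 0.475 and 0.609 CPM, again with no overlap, and a log2 difference of −2.39 ± 0.27 (SE).

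The size of the Hk2 difference depended on transcript length. The effective length that RSEM assigned to Hk2, an average over its isoforms, was 5278 to 5323 bases in control iNs and 1867 to 2545 bases in deletion iNs, so the few deletion counts fell on shorter isoforms in that estimate. Per transcript length, Hk2 stood at 0.51, 0.59 and 0.39 TPM in control and 0.32, 0.25 and 0.25 TPM in deletion iNs, and the limma fit on log2(TPM + 0.1) gave −0.67 ± 0.25 (SE), which was not past the threshold there. On that scale the median of all genes lay at 0.23 in the iN contrast, against 0.00 with counts, so that relative to it Txnip, at 2.94 ± 0.40, and Arrdc4, at 1.65 ± 0.24, were again higher. Slc2a1 stood at 0.33 ± 0.20 and Slc2a3 at 0.07 ± 0.11 there, on either side of that median. Effective lengths of Txnip in the iN libraries were 2103 to 2592 bases.

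By edgeR's quasi-likelihood test with Benjamini-Hochberg adjustment at 0.05, 3 of the 7 listed genes tested in iNs passed, Txnip and Arrdc4 higher and Hk2 lower. With limma on TPM 2 passed, without Hk2. Of all 16028 genes tested in this contrast, 25.6% passed, 12.4% higher and 13.3% lower. Since this contrast chose the set, nothing is read from the count.

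The rule that chose the set did not use the ESC contrast, though the 8 genes were taken with earlier results of these data known. Txnip went the other way there, in a call that some alternatives given below lost. Txnip fell by 0.37 ± 0.05 (SE) on the log2 scale in deletion ESCs (adjusted p = 0.00894, edgeR's quasi-likelihood test), from 29.0 ± 0.896 to 22.6 ± 0.143 CPM (SD, n = 3 each), lower in 3 of 3 deletion libraries than in any control library. Slc2a1 rose by 0.26 ± 0.03 (adjusted p = 0.00816, same test), from 336, 326 and 331 CPM in control to 414, 399 and 388 CPM in deletion ESCs, without overlap. So 2 of the 8 genes passed, where 1.91% of 16185 genes tested did, 1.37% higher and 0.544% lower. None of the other 6 passed: the log2 differences were −0.06 for Arrdc4, 0.10 for Mlxip, −0.31 for Mlxipl, 0.09 for Slc2a3, 0.09 for Hk1 and −0.11 for Hk2, with adjusted p from 0.281 to 0.769 in edgeR's test. Hk2 was 142, 129 and 128 CPM in control and 135, 121 and 117 in deletion ESCs, with overlap. Hk1 was 37.0, 31.4 and 31.3 CPM in control and 36.3, 36.1 and 34.8 in deletion ESCs, also with overlap. Slc2a3 was 474, 457 and 435 CPM in control and 500.0, 484 and 488 in deletion ESCs, where every deletion library stood above the controls without passing the test.

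Markers of cell state moved with the ESC genotype as well, where 1.37% of all genes tested passed higher and 0.544% lower. The 8 pluripotency markers summed to 2107 to 2226 TPM in control and 1792 to 2072 TPM in deletion ESCs, and 2 of the 8 fell by edgeR's test, Nanog (−0.23 ± 0.03) and Esrrb (−0.23 ± 0.04). The 7 fibroblast markers summed to 9.05 to 10.3 and 14.2 to 17.4 TPM, and 2 of the 6 tested rose, the collagen genes Col1a1 (0.75 ± 0.07) and Col3a1 (0.72 ± 0.14). Of the neural progenitor markers, 1 of 3 tested rose, the intermediate filament gene Nes (0.40 ± 0.04), while their sums overlapped. The calls of Nanog, Esrrb and Col3a1 were lost without any 1 of the ESC libraries other than deletion ESC A, and none of these 5 genes passed with limma on TPM. Mitochondrial genes took 1.99 to 2.27% of counts in control and 1.47 to 1.84% in deletion ESCs. The part of these features in the ESC results for Txnip and Slc2a1 was not tested.

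These ESC calls were lost under some alternatives. In a single fit of all 12 libraries, which takes in the wider spread of Txnip in iNs, the adjusted p by edgeR's test was 0.481 for Txnip and 0.108 for Slc2a1. Without deletion ESC library B it was 0.0609 and 0.0644, and without control ESC library B that of Slc2a1 was 0.0652, while the fold changes stayed within 0.36 to 0.39 in size for Txnip. On the TPM scale neither gene passed with limma. Libraries of the same letter deviated together in ESCs for letter A (r = 0.348), and more weakly for B (0.107) and C (0.136). Control B with deletion C had an r of 0.120, so pairing by letter was unclear for B and C. With the letter as a block 1019 genes passed in place of 309, with Txnip at an adjusted p of 0.00502 and Slc2a1 at 0.00113 by edgeR's test.

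The difference between the deletion's effect in iNs and that in ESCs was fitted on all 12 libraries as an interaction. For Txnip, whose iN libraries the choice used, it was 3.09 ± 0.34 (SE) on the log2 scale and is given without a test. Arrdc4 differed by 1.51 ± 0.21, Hk2 by −2.30 ± 0.22 and Slc2a3 by −0.25 ± 0.07. The iN contrast that chose the set is part of each of these differences, so they are given without p-values. Of the 7 genes other than Txnip 3 passed edgeR's test, Arrdc4, Hk2 and Slc2a3. Of 18299 genes tested 13.5% did, 5.01% with a positive and 8.5% with a negative difference. Nothing is read from the count. The log2 interaction was −0.07 for Mlxip, 0.27 for Mlxipl, −0.31 for Slc2a1 and 0.03 for Hk1, none past the threshold.

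With TPM values the interaction of Hk2 was −0.53 ± 0.24 and that of Slc2a3 −0.04 ± 0.14, and neither passed with limma. The Slc2a3 call was also lost in edgeR's test without control ESC library C or deletion iN library B. Without control iN library C, the interaction of Slc2a1 was −0.50 ± 0.08 and passed edgeR's test.

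**Figure D2:**
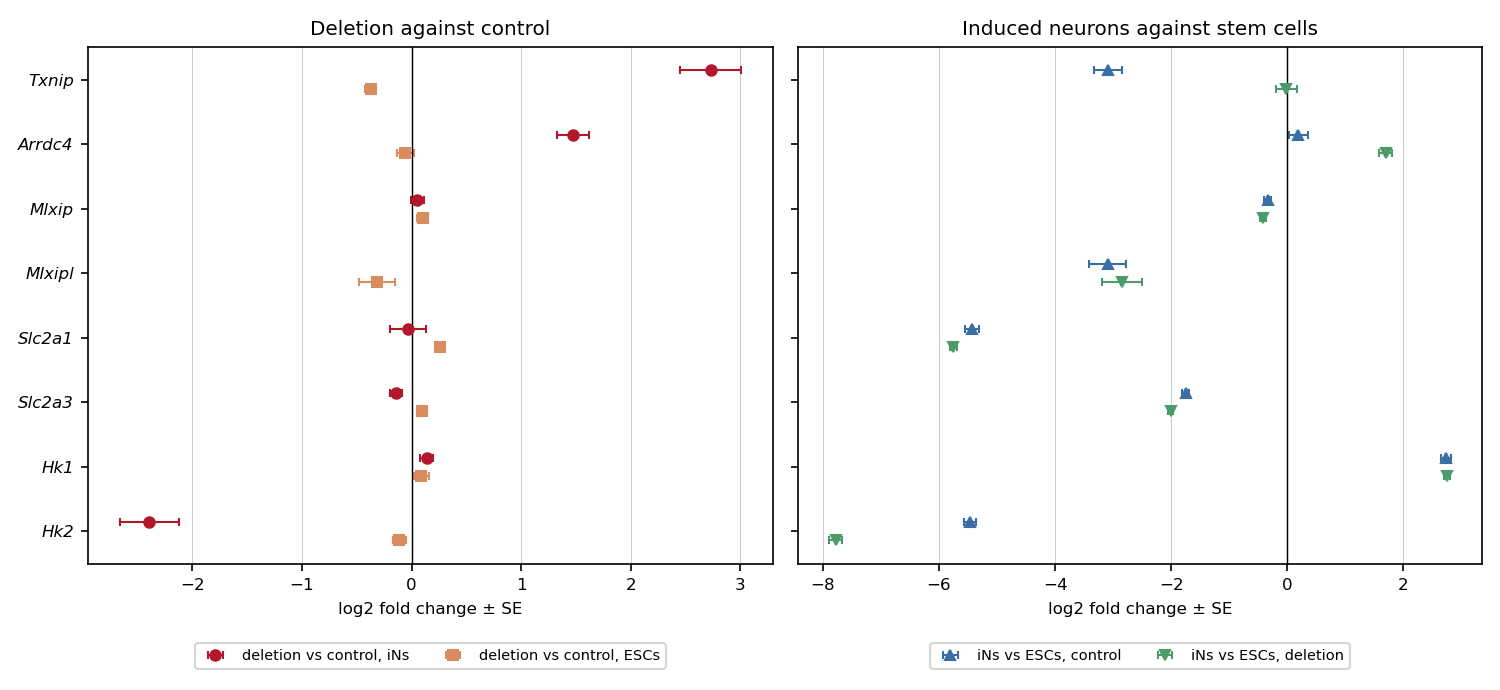
Log2 fold change with its standard error (edgeR, whiskers) for the 8 genes, deletion against control on the left and iNs against ESCs on the right; Mlxipl has no point for iNs on the left, where it was filtered out. Txnip lies at 2.73 in iNs and −0.37 in ESCs on the left, and at −3.09 in control and −0.01 in deletion cells on the right.

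Between control iNs and control ESCs 6 of the 7 genes other than Txnip passed, where 89% of 17247 genes tested did, 43.9% higher and 45.1% lower, so that a call alone says little here and the sizes and directions carry the description. Slc2a1 fell by 5.44 ± 0.12 (SE) on the log2 scale (adjusted p = 3.36e-13) and Slc2a3 by 1.75 ± 0.06 (adjusted p = 1.91e-11), both by edgeR's quasi-likelihood test. Slc2a1 went from 331 ± 5.22 to 7.63 ± 1.93 CPM and Slc2a3 from 455 ± 19.8 to 136 ± 6.72 CPM (SD, n = 3 each). The neuronal transporter GLUT3 thus fell less than GLUT1. Per transcript length, Slc2a1 made up 52.4 ± 1.47% (SD, n = 3) of the sum of both transporters in control ESCs and 7.36 ± 1.10% in control iNs. In deletion cells it made up 54.3 ± 0.819% and 8.69 ± 0.840%.

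The hexokinases exchanged places. Hk1 rose by 2.73 ± 0.09 (SE) on the log2 scale (adjusted p = 7e-12, edgeR's test), from 33.2 ± 3.23 to 222 ± 18.7 CPM, while Hk2 fell by 5.47 ± 0.10 (adjusted p = 5.1e-14, edgeR's test), from 133 ± 7.98 to 2.99 ± 0.533 CPM (SD, n = 3 each). Of the summed TPM of both, control ESCs held 71.1 to 72.9% as Hk2 and deletion ESCs 65.9 to 70.4%, but control iNs held 0.644 to 1.06% and deletion iNs 0.335 to 0.389%. The last values rest on the 9 to 12 Hk2 counts per library and their shorter effective length. The summed TPM of both hexokinases was 30.7 to 37.1 in control ESCs and 48.3 to 67.8 in control iNs.

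**Figure D3:**
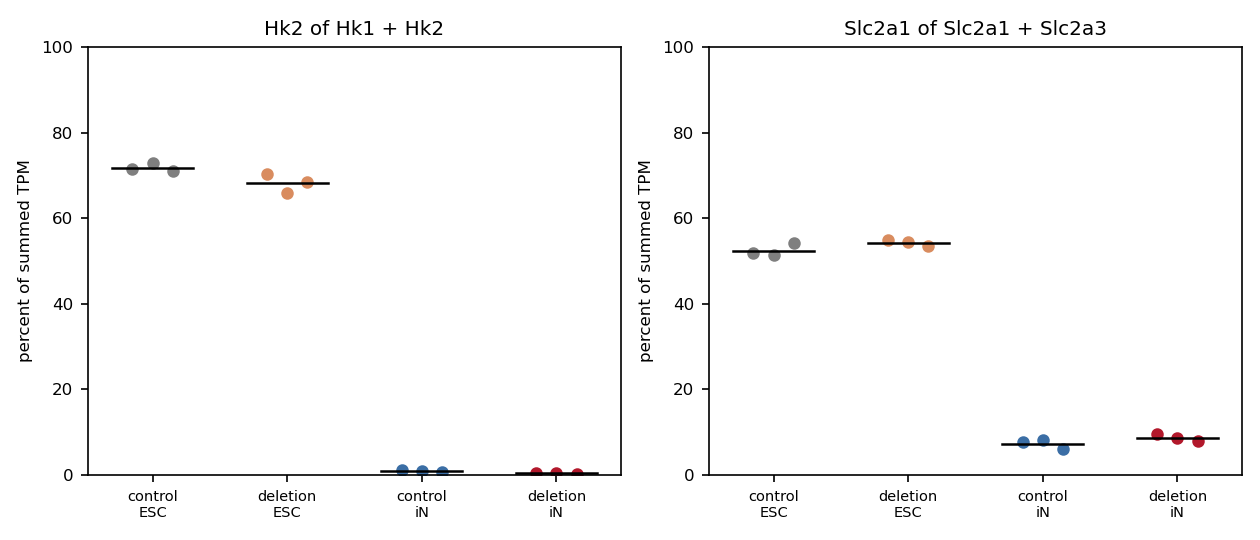
Share of Hk2 in the summed TPM of Hk1 and Hk2 (left) and of Slc2a1 in that of Slc2a1 and Slc2a3 (right), in percent, for each RNA-seq library (points) with the group mean (bar). Hk2 holds 65.9 to 72.9% in ESCs and at most 1.06% in iNs, and Slc2a1 51.3 to 55.0% in ESCs and 6.12 to 9.58% in iNs.

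Among the regulators, Mlxip fell by 0.34 ± 0.06 and Mlxipl by 3.10 ± 0.32 on the log2 scale in control iNs (adjusted p = 0.000176 and 1.01e-06, edgeR's quasi-likelihood test). Txnip stood at −3.09 ± 0.24, given without a test since its choice used the control iN libraries. Arrdc4 differed by 0.19 ± 0.16 and did not pass (adjusted p = 0.267, edgeR's test). Without control iN library A, its difference was 0.38 ± 0.11 with an adjusted p of 0.00581 by edgeR's test. On the TPM scale it was −0.39 ± 0.26, the opposite sign, as its effective length was 2268 to 2345 bases in control ESCs and 3047 to 3670 in control iNs.

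In deletion cells, all 7 genes other than Txnip passed between iNs and ESCs, where 89.4% of 17524 genes tested did, 44.6% higher and 44.9% lower. Txnip stood at −0.01 ± 0.17 (SE) on the log2 scale, given without a test since the choice used its iN libraries. Arrdc4 rose by 1.69 ± 0.11 (adjusted p = 1.67e-08, edgeR's test) and Hk1 by 2.76 ± 0.05 (adjusted p = 7.51e-14, edgeR's test). Hk2 fell by 7.78 ± 0.12 (adjusted p = 8.12e-15, same test) with counts, and by 5.86 ± 0.18 on the TPM scale. Slc2a1 fell by 5.76, Slc2a3 by 2.01, Mlxipl by 2.84 and Mlxip by 0.42 on the log2 scale, with adjusted p of at most 1.51e-05 by edgeR's test. The Mlxip call was lost on the TPM scale (−0.14 ± 0.13, adjusted p = 0.313, limma).

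Compared per transcript length within a group, the order of the 8 genes turned over with differentiation. In control ESCs it ran from Slc2a1 (119 TPM on average) and Slc2a3 (108), whose libraries overlapped, through Hk2 (23.7), then Txnip (11.5), Hk1 (9.35) and Mlxip (7.95), each overlapping the next, to Arrdc4 (4.71) and Mlxipl (1.27). In control iNs it ran from Hk1 (58.4 TPM) and Slc2a3 (32.8) to Mlxip (6.14), with no overlap between these. Arrdc4 (3.76), Slc2a1 (2.63), Txnip (1.32) and Hk2 (0.497) followed, each overlapping the next, and Mlxipl (0.220) was lowest. In deletion iNs, Arrdc4 (11.5 TPM) and Txnip (9.56) came next after Hk1 (74.7) and Slc2a3 (34.4). Their libraries overlapped each other, and those of Txnip also overlapped those of Mlxip (7.64). In deletion ESCs, Txnip (8.28 TPM) stood just under Mlxip (8.44), with overlapping libraries, and above Arrdc4 (4.46).

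Ago2 seCLIP in control iNs gave 16 regions in Txnip, 5 in Slc2a3 and none in the other 6 genes. A deposited region is a stretch of the genome with a log2 fold and a −log10 p, both the authors', of the HA-Ago2 immunoprecipitate over its own input and over the immunoprecipitate of untagged Ago2. Replicates were not kept apart, so the folds have no replicate check here, and a more abundant transcript can yield more regions. In the control iN RNA libraries Txnip averaged 1.32 TPM, Slc2a3 32.8 TPM and Hk1, which had no region, 58.4 TPM. The part of abundance in the numbers of regions was not tested. In the authors' deposited table all 16 Txnip regions lay in the last 1613 bases of the gene on the plus strand, in 6 separate blocks, the longest of which was a run of 10 touching pieces at chr3:96561221-96561383. Exon and UTR borders were not used here.

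The last Txnip region, chr3:96561759-96561838, ended 19 bases before the annotated end of the gene. In the authors' deposited table its log2 fold was 5.65 over input (−log10 p 36.96) and 3.43 over untagged (−log10 p 12.99), ranks 211 and 657 of the 22400 regions. The medians of all regions in that table were 2.22 over input and −0.134 over untagged. Of the Txnip regions, 12 of 16 had a log2 fold of at least 1 with a −log10 p of at least 3 over untagged in the authors' deposited table, a bound met by 6.38% of all regions, though the 10 touching pieces are not independent of each other. The highest fold over input in Txnip was 6.21, in the piece chr3:96561229-96561256.

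This last region was also the one the authors matched to microRNAs of the deleted cluster. The authors' deposited table placed a 7-base match to miR-485-3p at chr3:96561762-96561768 and one to miR-376b-5p or miR-376c-5p, which share the seed shown above, at chr3:96561790-96561796. For Slc2a3, the region chr6:122728828-122728889 (log2 fold 0.91 over input and 2.73 over untagged in the authors' deposited table) was matched to miR-495-3p at chr6:122728829-122728835 and again at chr6:122728873-122728879, on the minus strand. This Slc2a3 region had a −log10 p of 1.38 over input and 3.31 over untagged in the authors' deposited table. By log2 fold it ranked 20366 over input and 1224 over untagged of the 22400 regions, and its fold over input lay under their median of 2.22. All 4 matches carried the class letter N, whose meaning the table does not explain. Matched regions numbered 874 in 636 genes in that table.

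**Figure D4:**
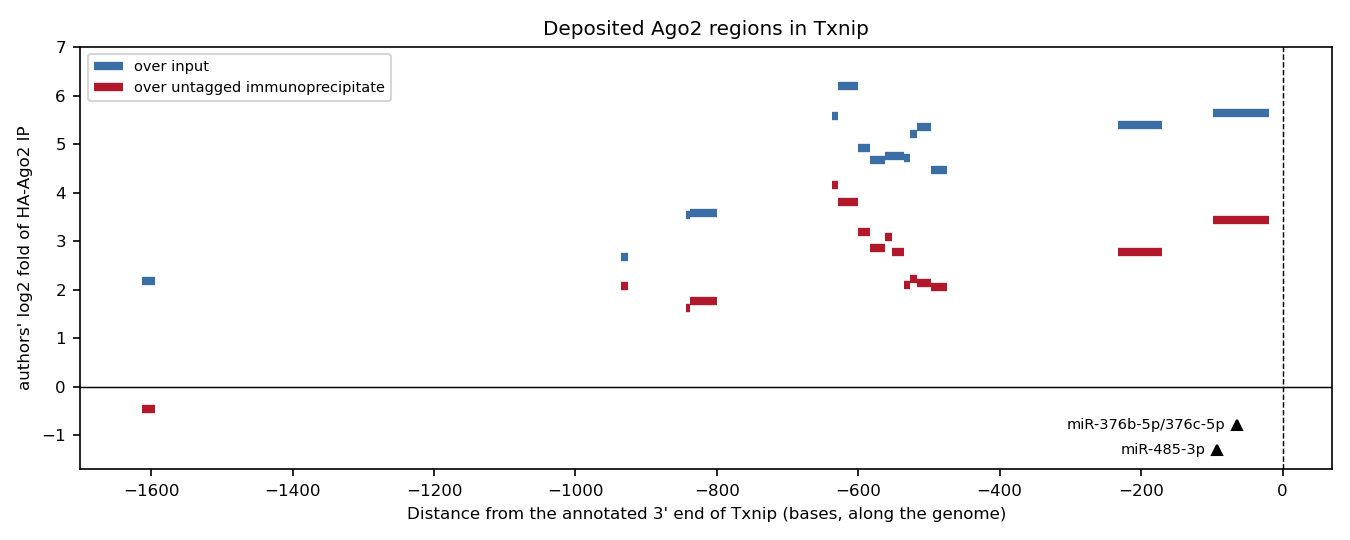
Deposited Ago2 regions in Txnip by distance from the annotated 3′ end of the gene (bases, x axis) and by the authors' log2 fold of the HA-Ago2 immunoprecipitate (y axis) over input (blue) and over untagged Ago2 (red); triangles mark the authors' microRNA matches at an arbitrary height. The region nearest the end stands at 5.65 over input and 3.43 over untagged, and the most distant one at 2.19 and −0.46.

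All 4 microRNAs were present in control and absent or nearly absent in deletion small RNA libraries, which held 744279 to 1532230 mature microRNA counts each. miR-376b-5p had 2443, 2717 and 2772 counts in control iNs A, B and C and 2, 3 and 2 in deletion iNs, a 738-fold lower level relative to all mature microRNA counts. In control ESCs it had 456, 469 and 744 counts and in deletion ESCs 2, 1 and 2, a 340-fold lower level. miR-376b-5p was thus 1839 ± 230 CPM of mature microRNA counts in control iNs and 596 ± 46.2 in control ESCs (SD, n = 3 each). Its seed partner miR-376c-5p had 56, 64 and 52 counts in control iNs and 0 in each deletion library, at least 37.3-fold lower in iNs by a floor of 3 counts over the group.

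miR-485-3p was scarce in neurons, with 4, 8 and 10 counts in control iNs against 19, 29 and 52 in control ESCs, and 0 in all deletion libraries, at least 4.77-fold lower in iNs and at least 33.9-fold lower in ESCs by the same floor. miR-495-3p, matched to Slc2a3, had 77, 66 and 60 counts in control iNs and 257, 127 and 205 in control ESCs. It had 0 in the deletion libraries, at least 44.0-fold lower in iNs. All 4 were thus depleted in both cell types. Txnip was higher with the deletion in iNs and lower with it in ESCs. The part of these microRNAs in either difference was not tested.

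Other genes of the same circuits were described from lists of related genes, by the counts past the threshold of edgeR's test and by the median log2 fold change. The median of all genes was 0.00 in both deletion contrasts, and in iNs it is the contrast that chose Txnip. Among 13 other genes known as MondoA or ChREBP targets, 8 were tested in iNs, of which 1 rose and 4 fell, with a median of −0.30. Among all genes tested there 12.4% passed higher and 13.3% lower, 25.6% in all. The one that rose was Rgs16, a regulator of G protein signalling, by 1.25 ± 0.23 (SE) on the log2 scale, from 1.27, 2.27 and 2.73 to 5.71, 5.17 and 4.31 CPM. The fatty acid synthesis genes Fasn (−0.63 ± 0.06), Acly (−0.44 ± 0.06) and Acaca (−0.36 ± 0.05) fell, as did the repressor Bhlhe40 (−0.80 ± 0.18). Genes listed as known targets thus moved in both directions in iNs, and whether these factors act on them here was not tested. With limma on TPM the falls of Acly, Acaca and Bhlhe40 did not pass. In ESCs 1 of 9 tested passed, Bhlhe40, at 0.31 ± 0.06, where 1.91% of all genes did. There 6 of 9 had an unadjusted p under 0.05, but the share of all genes at that bound is not given. Nothing is read from such unadjusted counts here or below.

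Of the Mlx and Max network, which holds the partners and rivals of MondoA, 5 of 11 rose and 1 fell in deletion iNs, against 12.4% and 13.3% of all genes. Those with the largest changes were the Max-binding repressors Mxd1 (0.69 ± 0.13) and Mxd4 (0.45 ± 0.08) and the Myc family genes Mycl (0.71 ± 0.16), which rose, and Mycn (−0.54 ± 0.06), which fell. Mlx itself, the obligate partner of MondoA, was at −0.05 and did not pass. In ESCs 1 of 11 passed, Myc at 0.44 ± 0.06, against 1.91% of all genes. None of the 3 other alpha-arrestins tested passed in iNs by edgeR's test, Arrdc1 at 0.33, Arrdc2 at 0.16 and Arrdc3 at −0.20, with 1 at an unadjusted p under 0.05 and 0 past the threshold of DESeq2. Arrdc1 lay near the threshold (adjusted p = 0.0524, edgeR's test). It passed as higher with posterior mean counts, without mitochondrial and 7S genes, with the letter as a block, in the fit of all 12 libraries, without the count filter and with limma on TPM, at adjusted p from 0.0191 to 0.05. Without the filter Arrdc3 also passed, as lower (adjusted p = 0.0187, edgeR's test). Without control iN library C both passed, without deletion iN library A Arrdc1 did, and without deletion iN library B Arrdc3 did.

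In the thioredoxin system, whose thioredoxin Txnip binds, 1 of 12 genes rose and 3 fell in deletion iNs, with a median of −0.09, a share near the 25.6% of all genes that passed. In the fit of all 12 libraries 1 rose and 5 fell. Thioredoxin itself, Txn1, was at −0.06 and did not pass. Of the peroxiredoxins, peroxidases most of which thioredoxin reduces, Prdx6 (−0.57 ± 0.06), Prdx3 (−0.30 ± 0.07) and Prdx2 (−0.24 ± 0.05) fell and Prdx5 (0.22 ± 0.06) rose. In ESCs 0 of 12 passed by edgeR's test and 0 by DESeq2, with 3 at an unadjusted p under 0.05.

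Further along glucose use, 1 of 19 genes of glycolysis after hexokinase rose and 5 fell in deletion iNs, with a median of −0.10, also near the 25.6% of all genes. The falls numbered 8 without control iN library A and 3 without control iN library B or any 1 of the deletion iN libraries. Of the 5, Gapdh and Pgk1 were also lost with the letter as a block (adjusted p = 0.0642 and 0.0821, edgeR's test). Aldoc, the brain aldolase, fell most (−0.69 ± 0.09), followed by the lactate dehydrogenases Ldhb (−0.34 ± 0.07) and Ldha (−0.28 ± 0.06), while Pfkl, a phosphofructokinase, rose (0.23 ± 0.07). Of the pentose phosphate pathway, 3 of 7 fell, where 13.3% of all genes did, Pgd (−0.42 ± 0.07), Rpe (−0.34 ± 0.07) and Tkt (−0.24 ± 0.06), and 0 rose by edgeR's test, with 4 of the 7 at an unadjusted p under 0.05 and 3 past the threshold of DESeq2. The lactate transporter Slc16a1 fell (−0.54 ± 0.09) and the mitochondrial pyruvate carrier Mpc1 rose (0.22 ± 0.07), 2 of 5 in their list. In ESCs 0 of 19, 0 of 7 and 0 of 5 genes of these lists passed by edgeR's test, with 1, 1 and 0 at an unadjusted p under 0.05 and 1, 1 and 0 past the threshold of DESeq2.

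Of 10 other genes of sugar transporter families, 4 were tested in iNs, of which 1 rose and 1 fell. Of all genes tested there 25.6% passed, so little can be read from so few. Slc2a13, the proton myo-inositol cotransporter, fell (−0.62 ± 0.08) and Slc45a1, a proton-coupled sugar transporter of brain, rose (0.33 ± 0.07). Among AMPK subunits and insulin signalling genes, which act on Txnip, 2 of 12 rose, near the 12.4% of all genes that did, Igf1r (0.24 ± 0.05) and Insr (0.19 ± 0.06). In ESCs the 2 of 12 that rose were Igf1r (0.36 ± 0.05) and Akt1 (0.35 ± 0.05), where 1.37% of all genes rose.

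The falls in these lists depended on the scale. With limma on TPM, where the median of all genes in iNs was 0.23, the lists' medians were −0.19 for the other Mondo targets, 0.13 for the thioredoxin system, 0.14 for glycolysis and 0.05 for the lactate and pyruvate transporters, all below that of all genes. Those of the Mlx and Max network (0.39), the other alpha-arrestins (0.52) and the other sugar transporters (0.31) lay above it. On that scale Rgs16 remained higher, and Fasn, Prdx6 and Aldoc remained lower. Bhlhe40, Acly, Acaca, Prdx3, Ldha, Ldhb, Pgd, Slc16a1, Mycl and Mycn no longer passed, and Prdx2, Rpe, Tkt, Gapdh and Pgk1 had the opposite sign, at 0.02, 0.0011, 0.0050, 0.04 and 0.07, without passing.

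Smaller calls also rested on single libraries. The iN calls of Pfkl, Mpc1, Insr and Prdx5 were lost when 1 of the libraries was left out, with adjusted p of up to 0.098, 0.16, 0.121 and 0.0665 by edgeR's test. None of the 4 ESC calls in these lists held with limma on TPM. By edgeR's test, that of Bhlhe40 was lost without any 1 of the 6 ESC libraries (adjusted p = 0.0511 to 0.16), that of Myc without control ESC A (0.0515) or deletion ESC B (0.0621), that of Akt1 without control ESC B (0.0614) or deletion ESC B (0.0609), and that of Igf1r without control ESC B (0.0668).

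The difference between the deletion's effects in iNs and ESCs passed for some of these genes too, by edgeR's quasi-likelihood test on all 12 libraries. Of all genes, 5.01% were positive and 8.5% negative. The iN contrast that chose Txnip is part of each difference, and the lists were chosen with earlier results known. The counts and p-values are therefore a description, from which nothing is read. Of 9 other Mondo targets tested, 1 was positive, Rgs16 at 1.15 ± 0.27 (adjusted p = 0.00947), and 4 were negative, Bhlhe40 at −1.12 ± 0.17, Fasn at −0.74 ± 0.07, Acaca at −0.50 ± 0.06 and Acly at −0.49 ± 0.08 (adjusted p of at most 0.000701). Of the thioredoxin system 4 of 12 were negative, Prdx6 at −0.65 ± 0.07, Prdx3 at −0.40 ± 0.10, Prdx2 at −0.37 ± 0.06 and the thioredoxin reductase Txnrd1 at −0.25 ± 0.07 (adjusted p of at most 0.0252). Of glycolysis after hexokinase 1 of 19 was positive and 2 were negative, of the pentose phosphate pathway 2 of 7 were negative, and of the other sugar transporters 0 of 7 passed, with 1 at an unadjusted p under 0.05 and 1 past the threshold of DESeq2. With limma on TPM, of the genes named here Rgs16 alone passed. Without deletion iN library B, Prdx3 did not pass (adjusted p = 0.0511, edgeR's test), and 1 glycolysis gene and 1 pentose phosphate gene remained negative. Without control ESC library A 4 glycolysis genes were negative. Txnrd1 did not pass without control ESC B or C, deletion ESC A or B, control iN B, or deletion iN B or C (adjusted p = 0.0504 to 0.164, edgeR's test).

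Between control iNs and control ESCs, nearly all genes of these lists changed, as most genes did. Of all genes tested there, 43.9% passed higher and 45.1% lower, and nothing is read from the counts. Of glycolysis after hexokinase 9 of 19 rose and 9 fell: the neuronal enolase Eno2 rose by 6.52 ± 0.12 and Pfkfb4 by 3.29 ± 0.14 on the log2 scale, while Pfkl fell by 2.84 ± 0.06 and Ldha by 2.52 ± 0.06. Of 6 other sugar transporters tested 4 rose, led by Slc2a13 (6.68 ± 0.12) and Slc2a6 (6.60 ± 0.25), and 2 fell. Of the lactate and pyruvate transporters Slc16a7, the monocarboxylate transporter typical of neurons, rose by 7.10 ± 0.13, and Slc16a3 and Slc16a1 fell by 4.09 ± 0.11 and 2.65 ± 0.06. Of the pentose phosphate pathway 6 of 7 fell.

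**Figure D5:**
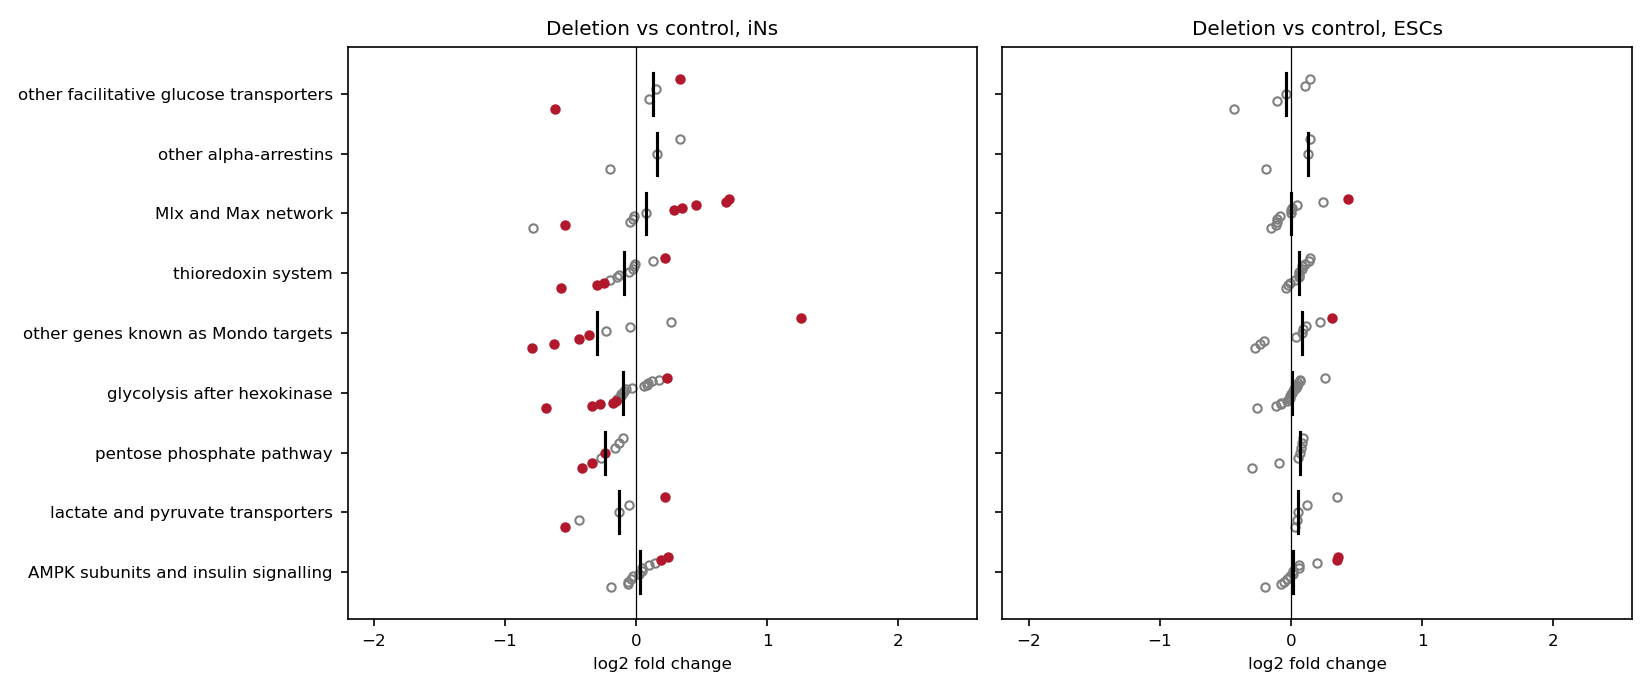
Log2 fold change with the deletion for the tested genes of each related list described (y axis) in iNs (left) and ESCs (right); filled red points passed edgeR's test, open grey points did not, and the black bar is the list's median. The highest point on the left is Rgs16 at 1.25, in the list of other Mondo targets, whose median lies at −0.30.

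The genes whose level across the 12 RNA libraries was most like that of Txnip were ranked by the Pearson r of log2 CPM among 10726 genes whose mean log2 CPM reached 2. They were Rgs16 (r = 0.967), the kainate receptor gene Grik3 (0.958), Zfp395 (0.950), Ccdc84 (0.948), the histone methyltransferase gene Kmt2a (0.945), Tmem101 (0.944), Leng8 (0.943) and Cep164 (0.942). As a description, these values share the 12 libraries and their 4 groups. The rank correlations of these 8 genes with Txnip ran from 0.531 for Kmt2a to 0.965 for Tmem101. For Arrdc4 the nearest were Gse1 (0.960), Abcc5 (0.953) and Brf1 (0.949), all other than those of Txnip.

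For the remaining genes, whose levels are set mainly by the step from ESCs to iNs, the nearest had r of at least 0.981. They were Psmd13, Cdk18 and Wdr4 for Mlxip, Sema4b, Ubxn1 and Ddx49 for Mlxipl, Smtn, B3gnt7 and Snrnp40 for Slc2a1, Srpk1, Pabpc4 and the glycolysis gene Pgam1 for Slc2a3, and Slit1, Ccdc136 and Mapk8ip3 for Hk1. The nearest to Hk2 were Gcnt2 and the aminoacyl-tRNA synthetase genes Eprs and Tars, which within the 6 iN libraries also had r of 0.996, 0.994 and 0.993 with Hk2. Within those 6 libraries Hk2 ran opposite to Txnip (r = −0.965) and Arrdc4 (r = −0.971), a description of the step between the genotypes.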

How the data were processed

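RNA-seq (KAPA RNA HyperPrep with RiboErase, paired reads), small RNA-seq (QIAseq) and seCLIP were deposited. Per the submitters' processing notes, mm10, SAMtools, DESeq2, RSEM (1.2.30), STAR (2.4.1d) and cutadapt (1.4.2) were used, in roles not given in the sources used here. Per the file headers, the authors deposited RSEM expected counts, posterior mean counts, effective lengths and TPM per gene. The strand setting was not given in the sources used here, so overlapping antisense genes are uncertain. The authors' deposited region lists give a log2 fold and a −log10 p per region, and their deposited DESeq2 tables give log2 fold changes, p-values and a mean normalised count signal, used here for names only.

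Rounded expected counts went into the quasi-likelihood F test of edgeR 4.0.16 (R 4.3.3), with TMM scaling, filterByExpr at 10 counts and Benjamini-Hochberg adjustment at a threshold of 0.05. Each comparison of 2 groups used its 6 libraries and the interaction all 12. The SE is the log2 fold change divided by the square root of F. The script was tested on simulated data. Symbols came from a reference table for 49035 entries and from the authors' tables otherwise, 51323 of 52636 in all. They covered 139 of 141 listed genes, all but Arrdc5 and Aqp4. Mature microRNAs were named by matching normalised means of rounded posterior mean counts (875 of 2045 rows, 99.99% of mature counts, relative tolerance 1e-08).

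The 8 genes and the lists were chosen with earlier results of these data known. Beside these and Mirg, at most 4 passing genes per list and comparison are named, with the genes most like each of the 8 (8 for Txnip and 3 for the others, leaving out Gm and Rik symbols). Mlx, Txn1, Arrdc1, Arrdc2 and Arrdc3, which did not pass, and Gapdh, Pgk1 and the ESC marker genes were named after their values were seen. One list is not reported here. Same-letter libraries had r of 0.348, 0.107 and 0.136 for letters A to C in the ESC deletion comparison, taken across genes, none an independent replicate of another. All exceeded the bound of 0.1, so the letters were taken to pair them there. Control B with deletion C had 0.120, however, so only letter A stood clearly apart. In the other comparisons same-letter r was −0.150 to 0.0358. Alternatives were DESeq2 1.42.0 (its size factors and its Wald test), no count filter, 1 fit of all 12 libraries, posterior mean counts, removal of 227 genes (7S, ribosomal-RNA-like and mitochondrial), the letter as a block, each library left out, a stricter region bound, a wider overlap of region and gene, and an exact motif. A limma 3.58.1 fit on log2(TPM + 0.1) was added after the effective lengths of Hk2 were seen. Its fold changes are on that scale, which understates those of low genes. Intervals were not computed, and the floors for counts of 0 cover counting error only.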

Additional observations from a re-analysis of the deposited data

Results flagged for a closer look

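Of the 7 genes other than Txnip, 3 had a deletion effect in iNs that differed from that in ESCs by edgeR's interaction test. Of all genes tested 13.5% did. The iN contrast that chose the set is part of this difference, so nothing is read from the count. The log2 difference was 1.51 ± 0.21 (SE) for Arrdc4, −2.30 ± 0.22 for Hk2 and −0.25 ± 0.07 for Slc2a3. With limma on TPM that of Hk2 was −0.53 and that of Slc2a3 −0.04, and both calls were lost on that scale. For Txnip the difference was 3.09 ± 0.34, with the deletion libraries above every control library in iNs and below every control library in ESCs. Txnip was chosen on the iN libraries, so no test is given.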

How the results depend on the processing

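Across 39 pairs of a gene and a comparison, alternatives gave 585 log2 fold changes. Of these, 569 kept the direction of a call and their side of the threshold, no call reversed, 13 lost the call and 3 gained it. Mlxipl could be tested in iNs without the filter (−0.02) or in 1 fit of all 12 libraries (−0.03). The deletion contrast in ESCs moved most. There 2 of the 8 genes passed, against 0 in 1 fit of all 12 libraries and 0 with limma on TPM, with 3 and 2 genes at an unadjusted p under 0.05, and 0 to 2 when each library was left out in turn. Genes past the threshold there numbered 309, against 504 without the filter, 1019 with the replicate block (50.8% of them higher in place of 71.5%, or 61.3% with DESeq2), 3 with limma on TPM and 90 to 160 in the 5 left-out fits that moved most. The replicate block left the number of listed genes past the threshold at 7, 2, 3, 7 and 4 in the 5 comparisons, and it changed no call among them. These counts include Txnip, from which nothing is read where its iN libraries enter. In the interaction 2 listed genes passed with limma on TPM in place of 4, as Hk2 and Slc2a3 were lost, and 772 genes in place of 2473. Limma on TPM shifted the median of all genes by over 0.1 wherever deletion iNs entered, and the share of calls that were higher there was 88.0% in place of 48.2% in the iN deletion contrast, 83.3% in place of 37.1% in the interaction and 54.9% in place of 49.8% between deletion iNs and ESCs. Slc2a3 passed in the iN contrast in the fit of all 12 libraries (−0.14). The exact motif was found in 0 of the genes' windows in place of 1. Counts of 12 per library or fewer limit Hk2 in deletion iNs and Mlxipl in both iN groups. The cause of these changes was not tested.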
